A study of Arabidopsis thaliana with 30 samples.

Results

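Roots were compared with shoots in mock-treated wild-type seedlings of Arabidopsis thaliana, a small flowering plant of the cabbage family, gene by gene over polyadenylated RNA. The comparison took in 8 of the 30 libraries of the series, 4 from roots and 4 from shoots of Col, labelled Col-0, with no mutation or transgene named. Of the 33199 features in the deposited table, 19592 reached an FPKM of 1 in 3 or more of these 8 libraries and were tested. FPKM is a read count per kilobase of gene, scaled here by a size factor for each library. Seedlings were 7 days old and had grown on upright plates of half-strength Murashige and Skoog agar. Both organs were given the mock treatment, which was 2 h in the liquid form of that medium with 0.1% of the solvent DMSO and no added hormone. Plants were parted at the hypocotyl into pools of roots and pools of shoots, and it is not stated whether the cut came before or after those 2 h. The other 22 libraries came from the ahp4-2 mutant of a cytokinin phosphotransfer protein and from seedlings given 100 nM of the cytokinin BA for the same 2 h. The labels do not say whether the 4 libraries of an organ came from separate plates or days. The p-values therefore reflect only the variation among these samples, and that may be technical.

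The root of a seedling anchors the plant, takes up water and ions through its epidermis and root hairs, and screens them at the endodermis before they reach the vessels. The shoot holds cotyledons, the first leaves and the shoot meristem, fixes carbon in chloroplasts and exchanges gas through stomata behind a waxy cuticle. Sugar moves down from the shoot while nitrate and minerals move up, and many enzymes and carriers exist as pairs of gene copies of which one is known from leaves and the other from roots.

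Libraries held between 9857745 and 12460733 reads on genes, as rebuilt from the deposited values. Levels below are means of FPKM ± SD over 4 libraries, differences are root minus shoot on the log2(FPKM + 1) scale ± SE, and higher or lower is written of genes with an adjusted p under 0.05 in limma, a linear model fitted across all genes tested. The added 1 makes the difference smaller than the fold change for genes at low FPKM. Whole organs were sequenced, so fewer cells of a type and less RNA per cell cannot be told apart. Of the 19592 genes, 7394 were higher in root (37.7%), 6417 were higher in shoot (32.8%) and 5781 were called in neither direction. A difference of 1 or more on this scale, written as 2-fold below, was called for 3775 genes in root (19.3%) and 3423 in shoot (17.5%). Per unit of size factor, the shoot libraries had 1.472 times the reads of the root libraries, so the level of each gene against all others depends on the scale. On the deposited scale the median difference over all genes was 0.06, and on a scale of read totals it was 0.54, with 11801 genes higher in root and 3941 in shoot. Called in the same direction on the deposited scale, by read totals, by quantiles and by 15 reference genes were 6223 genes in root (31.8%) and 3940 in shoot (20.1%). With a difference of 1 or more on each of these 4 scales, 3194 genes were higher in root (16.3%) and 2575 in shoot (13.1%). Gene lists are given below as counts on the deposited scale, followed by the count that held on all 4 scales. The counts can be set beside 37.7% and 32.8% for all genes, and beside 31.8% and 20.1% on all 4 scales. Medians can be set beside 0.06 for all genes.

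The labels of the 2 organs matched their defining genes. All 17 shoot markers were higher in shoot, on all 4 scales, with a median difference of -6.96. Of 20 root markers, 19 were higher in root, on all 4 scales, with a median difference of 4.08. The root marker that passed in neither direction was SCR, which encodes a transcription factor of the endodermis and stood at 13.4 ± 0.8 FPKM in root and 11.2 ± 1.93 in shoot. In the root libraries the shoot markers together took 0.0846, 0.0502, 0.0148 and 0.0168% of reads, against 8.82 ± 0.627% in the shoot libraries. Root libraries 1 and 2 thus held more reads of shoot markers than libraries 3 and 4, and the markers FAMA and FIL, of guard cells and of young leaves, were at 0 in all 4. Other shoot markers were read in all 4 root libraries, such as GLK1 at 0.407, 0.195, 0.203 and 0.191 FPKM. CA1 was read there at 3.19, 0.954, 0.0431 and 0.0252 FPKM. Root markers took 1.39 ± 0.119% of reads in root and 0.0942 ± 0.0142% in shoot.

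Most genes that differed by at least 2-fold here were called in the same direction in libraries outside the 8. Between roots and shoots of Col given BA, 7210 of 19480 genes were higher in root (37.0%) and 6352 in shoot (32.6%). Between roots and shoots of mock-treated ahp4, 7493 of 19515 were higher in root (38.4%) and 6324 in shoot (32.4%). Of the 3775 genes at least 2-fold higher in root here, 3519 were higher in root with BA (93.2%) and 3708 were higher in root in ahp4 (98.2%). Of the 3423 genes at least 2-fold higher in shoot here, 3299 were higher in shoot with BA (96.4%) and 3321 in ahp4 (97.0%). The first root library of mock-treated ahp4 carries labels that disagree with each other, and without it the ahp4 counts were 3638 and 3318. The lists of at least 2-fold genes shared 3205 root genes with those of BA, which were 84.9% of the list here and 81.3% of the list with BA. They shared 3000 shoot genes, 87.6% of the list here and 89.2% of the list with BA.

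**Figure D1:**
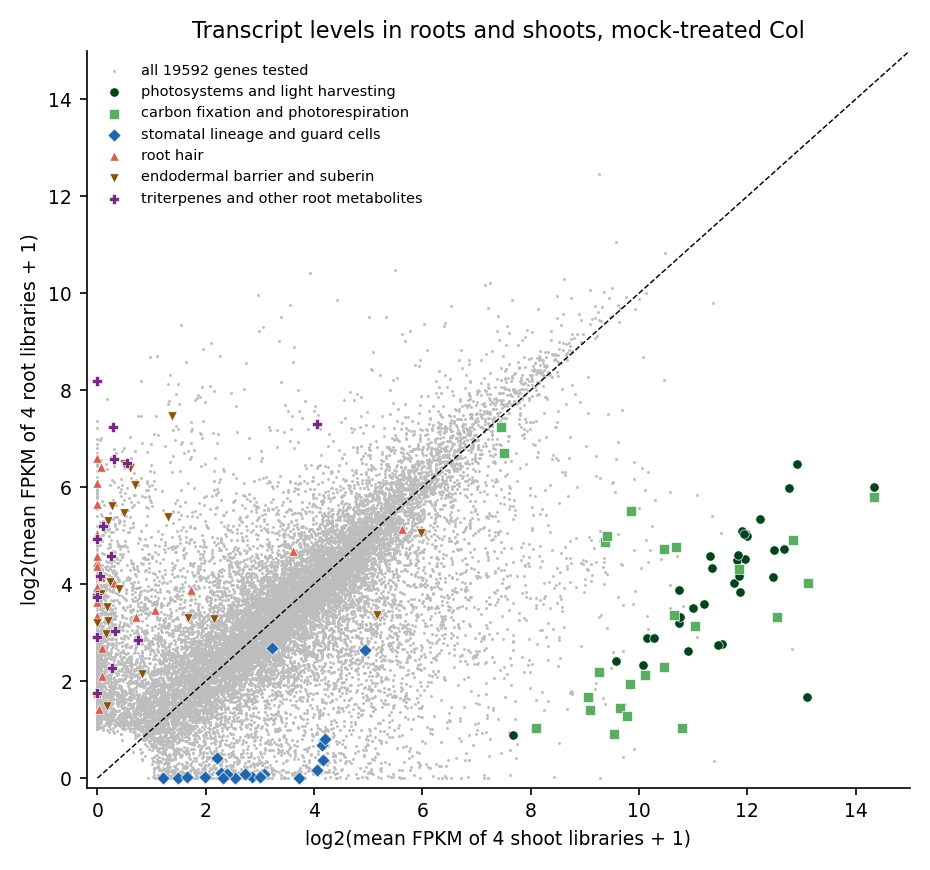
Level of each of the 19592 genes tested in shoot (horizontal axis) and root (vertical axis), as log2(mean FPKM of 4 libraries + 1), with members of 6 gene lists in colour. Photosystem and carbon fixation genes lie along the horizontal axis, below the line of equal levels, and root hair and endodermal genes lie along the vertical axis.

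A pair of genes higher in shoot and a pair higher in root are shown with the 250 bases before the annotated gene start. Their short sequence motifs can thus be set beside shares over many promoters. LHCB1.3, a protein of the antenna that gathers light for photosystem II, was read at 119, 95.8, 14.8 and 22.9 FPKM in the 4 root libraries and at 17075, 22675, 18280.0 and 25133 in the 4 shoot libraries. RBCS2B, a small subunit of the carbon-fixing enzyme Rubisco, was read at 26.8, 8.28, 0.0753 and 0.617 FPKM in root and 5442, 7318, 5146 and 6131 in shoot. Every shoot library was far above every root library for both, and root libraries 1 and 2 were above 3 and 4. Their differences were -8.81 ± 0.57 and -10.34 ± 0.84, with adjusted p of 1.16e-07 and 8.08e-07 in limma. RBCS2B has the locus code between those of RBCS1B and RBCS3B, and how reads were split among these copies was not tested. PYK10, a beta-glucosidase stored in bodies of the endoplasmic reticulum, was the most abundant nuclear gene of the root, at 4728, 6173, 5724 and 5848 FPKM, and was read at 505, 802, 585 and 566 in shoot. EXPA7, an expansin that loosens the wall of growing root hairs, was read at 45.4, 50.2, 40.3 and 60.3 FPKM in root and at 0 in all shoot libraries, at least 634-fold higher in root with 3 reads set against the shoot group. The PYK10 difference was 3.21 ± 0.18, with an adjusted p of 3.00e-08, and the EXPA7 difference was 5.63 ± 0.13, with an adjusted p of 7.60e-11, both in limma. The sequences are of the TAIR10.1 assembly of RefSeq and are written 5′ to 3′ on the strand of the gene, from chr1:10477635-10477884 on the plus strand for LHCB1.3, chr5:15382072-15382321 on the minus strand for RBCS2B, chr3:2843782-2844031 on the minus strand for PYK10 and chr1:4276255-4276504 on the plus strand for EXPA7. Capitals mark 9 motifs searched on both strands, which were the G-box CACGTG, the I-box core GATAAG of light-regulated genes, the evening element AAAATATCT, the telomere-like box AAACCCTA, the GC-rich GGGCCC, the W-box core TTGAC, the auxin element TGTCTC, the abscisic acid element ACGTGG and the TATA box TATAAA. The G-box and ACGTGG can overlap and did so in RBCS2B.
LHCB1.3: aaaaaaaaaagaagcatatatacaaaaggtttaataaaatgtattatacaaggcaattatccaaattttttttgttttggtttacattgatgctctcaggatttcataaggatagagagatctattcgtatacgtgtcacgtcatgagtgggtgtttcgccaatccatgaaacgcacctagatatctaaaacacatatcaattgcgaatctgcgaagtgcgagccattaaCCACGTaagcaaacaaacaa
RBCS2B: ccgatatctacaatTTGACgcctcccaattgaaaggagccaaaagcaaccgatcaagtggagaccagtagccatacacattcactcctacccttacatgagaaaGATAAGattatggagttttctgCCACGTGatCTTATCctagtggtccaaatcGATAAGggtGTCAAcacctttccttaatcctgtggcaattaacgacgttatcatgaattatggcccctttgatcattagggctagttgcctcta
PYK10: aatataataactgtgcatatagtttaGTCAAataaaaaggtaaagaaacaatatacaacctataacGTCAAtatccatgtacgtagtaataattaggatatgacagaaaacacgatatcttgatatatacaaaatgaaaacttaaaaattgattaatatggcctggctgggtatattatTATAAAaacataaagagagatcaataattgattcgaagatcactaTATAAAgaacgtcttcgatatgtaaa
EXPA7: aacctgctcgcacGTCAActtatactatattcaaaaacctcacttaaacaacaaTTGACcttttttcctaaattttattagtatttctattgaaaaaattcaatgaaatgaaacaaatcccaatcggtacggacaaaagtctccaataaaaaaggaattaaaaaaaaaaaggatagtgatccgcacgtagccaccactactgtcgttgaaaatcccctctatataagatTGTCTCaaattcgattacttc
In these letters, LHCB1.3 held ACGTGG on the other strand 20 bases before its start. RBCS2B held GATAAG at 146 and 94 bases before its start and once on the other strand, the overlapping CACGTG and ACGTGG at 123 to 124, and TTGAC on each strand. PYK10 held TATAAA at 71 and 26 bases before its start, and EXPA7 held TGTCTC at 21. TTGAC was also in PYK10, on the other strand at 224 and 184 bases before its start. EXPA7 held TTGAC on the other strand at 237 and on the strand shown at 196. Over the 300 bases from 250 before to 50 after each start, GATAAG was in 20.3% of 3325 promoters of genes at least 2-fold higher in shoot, 14% of 3751 at least 2-fold higher in root and 14.8% of 19371 promoters of all genes tested. TATAAA was in 59.3% of the root set, 48.4% of the shoot set and 51.4% of all. TTGAC was in 55.4% of the root set, 47.8% of the shoot set and 51.0% of all. For TGTCTC these shares were 14.4%, 14.3% and 13.6%. Of the 33 photosystem genes, 18 held GATAAG (54.5%), 12 held ACGTGG (36.4%) and 10 held CACGTG (30.3%), and over all genes tested CACGTG was in 8.69% and ACGTGG in 10.8%. Of 24 root hair genes, 17 held TATAAA (70.8%), 3 held GATAAG (12.5%) and 0 held CACGTG. These are counts of letters in a window, with no test, and say nothing of what binds there.

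Genes of the photosystems and their light-harvesting antennae were higher in shoot by wide margins. All 33 members of that list were tested and all 33 were higher in shoot, on all 4 scales, with a median difference of -7.51. The antenna protein gene LHCB1.1 had the lowest value of any gene with a symbol and no overlap of libraries, at 2.19 ± 2.25 FPKM in root and 8763 ± 1127 in shoot, a difference of -11.67 ± 0.39. PSBR, a subunit of photosystem II, kept the highest root level of the list, at 88.7 ± 30.5 FPKM, against 7785 ± 1230.0 in shoot. PSAH2, a subunit of photosystem I, stood at 5.13 ± 3.64 FPKM in root and 1926 ± 348 in shoot. PETE1 and PETE2 both encode plastocyanin, which carries electrons between the photosystems, and PETE2 was the more abundant in shoot, at 3626 ± 730.0 against 204 ± 11.1 FPKM. LHCB1.1, LHCB1.3 and CAB3 are near-identical copies that lie side by side, so how reads were split among them is uncertain.

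Carbon fixation and photorespiration followed the same direction with 1 exception among the genes tested. Of 26 members 25 were tested, 24 were higher in shoot and 23 remained so on all 4 scales, with a median difference of -7.82. RBCS1A, a small subunit gene of Rubisco, was read at 126, 68.5, 11 and 13.3 FPKM in the root libraries and 18668, 22512, 20042 and 21652 in the shoot libraries. CA1, a carbonic anhydrase of the chloroplast, was read at 3.19, 0.954, 0.0431 and 0.0252 FPKM in root and 1419, 2134, 1635 and 1877 in shoot. For both genes root libraries 1 and 2 were above root libraries 3 and 4 and all 4 were far below every shoot library, and the part of the reads of shoot markers in the root levels was not tested. The differences were -9.20 ± 0.65 and -9.99 ± 0.38. RCA, which encodes Rubisco activase, stood at 29.1 ± 21.7 FPKM in root and 7354 ± 1058 in shoot. Among photorespiratory genes, GLDP1, the P protein of glycine decarboxylase, stood at 30.8 ± 6.19 FPKM in root against 675 ± 69.4 in shoot, while its copy GLDP2 stood at 104 ± 9.77 against 181 ± 32.7, a difference of -0.79 ± 0.13 that was not called on every scale. GLYK, the glycerate kinase that ends the pathway, was read at 133, 142, 130.0 and 197 FPKM in root and 175, 195, 159 and 168 in shoot, and these ranges overlapped. Its difference of -0.23 ± 0.14 had an adjusted p of 0.154 in limma. PGLP1 had next to no reads, and a near-identical copy of it is annotated, so it was not described.

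**Figure D2:**
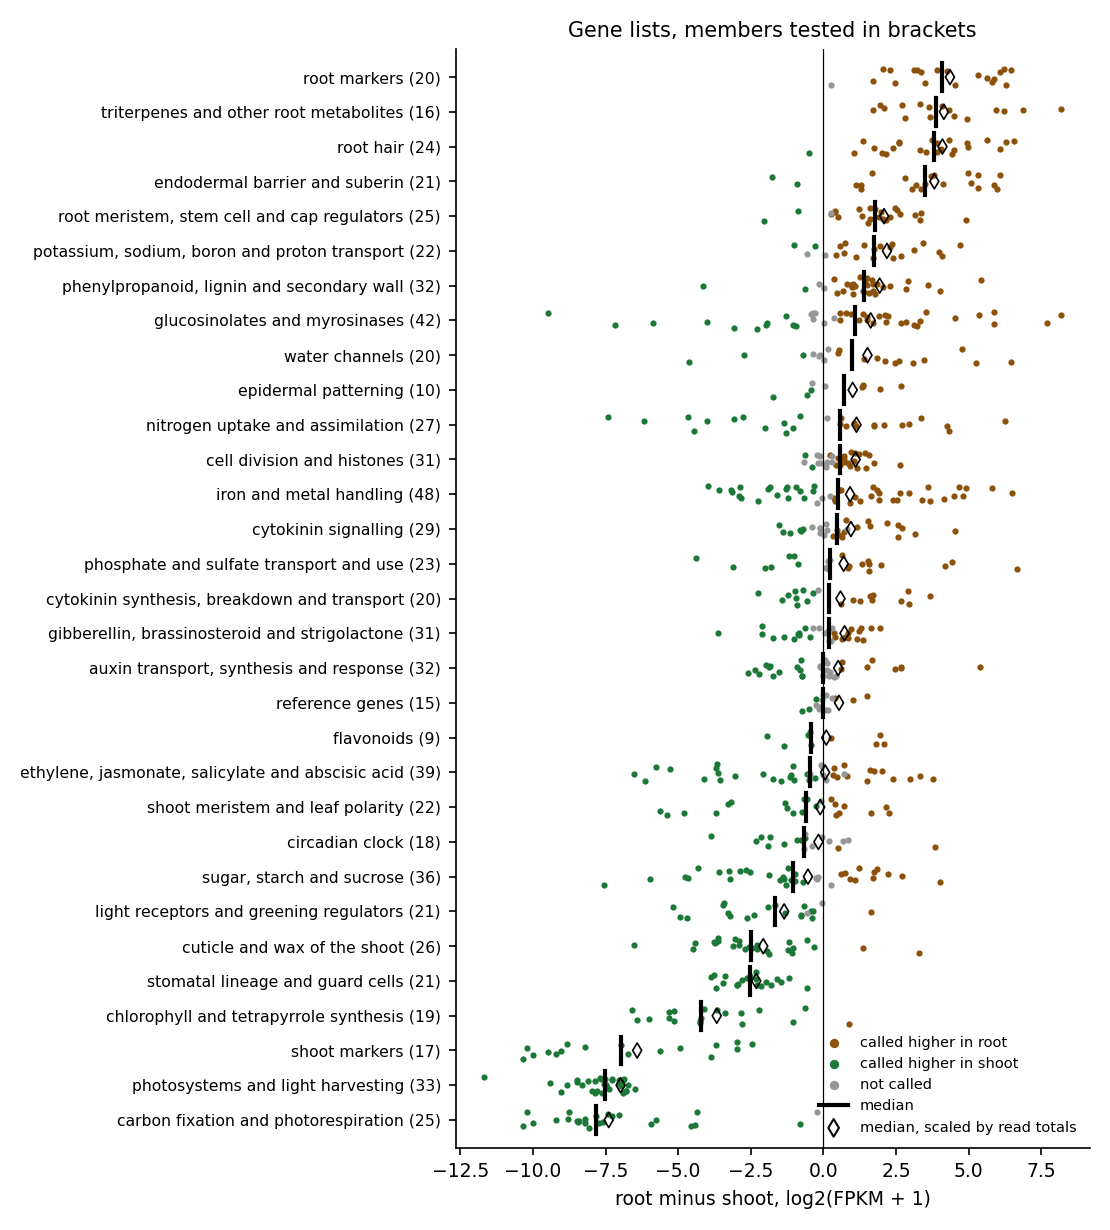
Root minus shoot difference of each tested member of the gene lists on the log2(FPKM + 1) scale, 1 row a list, with a bar at the list's median and a diamond at its median after scaling by read totals. Photosystem, carbon fixation and shoot marker genes lie at the far negative end, triterpene, root marker and root hair genes at the positive end, and the reference genes near 0.

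Photosystem and carbon fixation genes together filled a large share of each shoot library. Photosystem genes took 0.157, 0.119, 0.0568 and 0.0696% of reads in the 4 root libraries and 13.1 ± 1.52% in the shoot libraries. Carbon fixation genes took 0.175 ± 0.0417% in root and 8.63 ± 0.429% in shoot. The 10 most abundant genes of a library held 3.75 ± 0.283% of its reads in root and 10.9 ± 0.836% in shoot, and the 100 most abundant held 14.4 ± 0.644% and 29.9 ± 2.35%. Genes at 1 FPKM or more numbered 18348 ± 35.1 in root libraries and 17283 ± 124 in shoot libraries. Of 35 such shares, 32 differed between the organs, each with complete separation of the 4 root from the 4 shoot libraries and an adjusted p of 0.0312 in an exact two-sided permutation test, whose smallest raw p with 4 against 4 is 0.0286. Shares within a library are tied to one another, so the 32 are not separate results. The shoot and root marker lists, chosen to differ, were among the 32. So were the reference genes, at 1.05 ± 0.0579% of reads in root and 0.614 ± 0.0341% in shoot. The 3 that did not pass were the shares of shoot meristem genes, of gibberellin, brassinosteroid and strigolactone genes, and of clock genes. As a share of summed FPKM the shoot meristem genes passed too, at 0.0267 ± 0.00308% in root and 0.0371 ± 0.00277% in shoot, with an adjusted p of 0.0303 in the same exact test.

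**Figure D3:**
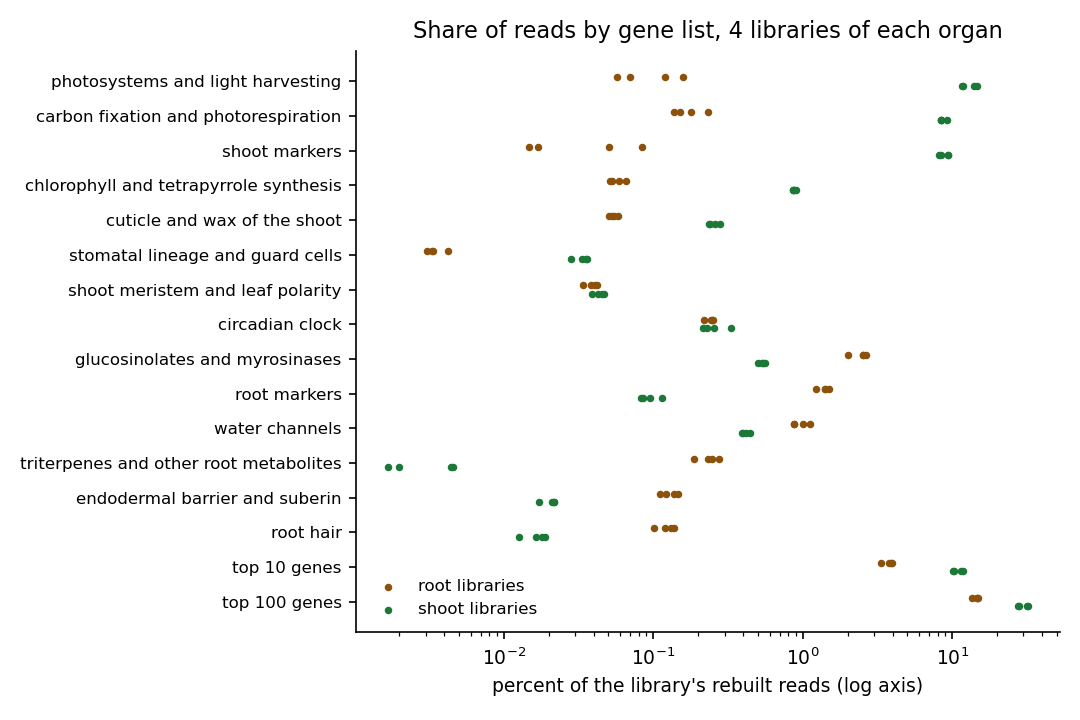
Percent of the reads of each of the 8 libraries that fell on the genes of each list, on a log axis, with root and shoot libraries in different colours. Photosystem genes lie near 0.1% in root libraries and 13.1% in shoot libraries.

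Genes of chlorophyll synthesis were higher in shoot, while a gene of the heme branch was higher in root. Of 20 members 19 were tested, 18 were higher in shoot and 17 on all 4 scales, with a median difference of -4.21. CHLH, the large subunit of magnesium chelatase, which commits tetrapyrroles to chlorophyll, was read at 11.1, 9.63, 5.55 and 3.88 FPKM in root and 712, 760.0, 626 and 628 in shoot. The organs were far apart in every library, with a difference of -6.41 ± 0.25. HEMA1, the glutamyl-tRNA reductase of greening tissue, stood at 26.7 ± 3.2 FPKM in root and 286 ± 14 in shoot, and its copy HEMA2 at 16.2 ± 1.75 and 25.8 ± 4.95. FC1, a ferrochelatase that sends tetrapyrroles to heme, was higher in root on all 4 scales, at 31.7, 32.1, 34.6 and 33.1 FPKM in root and 18.7, 20.4, 16 and 14 in shoot. Its copy FC2 ran the other way, at 4.77 ± 1.05 in root and 38.8 ± 2.49 in shoot.

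Light receptors and regulators of greening were mostly higher in shoot. Of 21 members 18 were higher in shoot and 1 in root, and 13 and 1 held on all 4 scales, with a median difference of -1.67. PIF4, a transcription factor that binds phytochrome, was read at 0.419, 0.292, 0.108 and 0.127 FPKM in root and 25.8, 30.8, 28.5 and 41.3 in shoot, a difference of -4.71 ± 0.16. GLK1, which activates photosystem genes, stood at 0.249 ± 0.105 FPKM in root and 36.9 ± 3.78 in shoot, and its copy GLK2 at 6.05 ± 1.38 and 68.5 ± 12.4. The blue light receptor PHOT1 was the higher of the phototropins in both organs, with 10.6 ± 2.57 FPKM in root and 70.6 ± 11.9 in shoot. HY5, a transcription factor of light signalling, was the member higher in root, with 13.5, 13.2, 14.5 and 13.4 FPKM against 3.85, 4.78, 4.14 and 2.5 in shoot. COP1, the ubiquitin ligase that acts on HY5, passed in neither direction, at 11.9 ± 0.605 and 12.5 ± 2.07 FPKM.

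Regulators of leaf shape and of the shoot meristem were split. Of 29 members 22 were tested, 13 were higher in shoot and 8 in root, and 9 and 4 held on all 4 scales, with a median difference of -0.61. The YABBY genes, which mark the lower side of leaves, were close to absent from root. FIL was at 0 in all 4 root libraries and at 43.2, 52.3, 43.3 and 53.7 FPKM in shoot, which is at least 1045-fold higher in shoot when 3 reads are set against the root group. YAB3 was read at 0.0406, 0, 0.0446 and 0 FPKM in root and 33.7, 45.4, 41 and 47.8 in shoot. STM, a homeobox gene of the shoot meristem, was at 0 in root and at only 1.01, 1.25, 1.17 and 0.921 FPKM in shoot, and WUS and CLV3 were at 0 in all 8 libraries. KNAT6, a relative of STM, was higher in root, at 14.8, 11.8, 13.8 and 13.4 FPKM against 3.6, 3.37, 3.55 and 4.03. AN3, a coactivator of cell proliferation in leaves, was also higher in root, at 13.7, 14.7, 16.2 and 18.8 FPKM against 1.85, 2.21, 2.84 and 3.18. TCP4, which slows leaf growth, stood at 1.29 ± 0.227 FPKM in root and 19.7 ± 1.34 in shoot.

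All genes of the stomatal lineage that were tested were higher in shoot, 21 of 22 members, of which 20 held on all 4 scales, with a median difference of -2.53. SPCH, MUTE and FAMA act one after another in the making of guard cells. They stood at 7.4 ± 0.728, 1.82 ± 0.635 and 12.2 ± 1.69 FPKM in shoot, and the latter pair was at 0 in all 4 root libraries. TMM, a receptor-like protein that spaces stomata, stood at 0.118 ± 0.0538 FPKM in root and 15.5 ± 2.54 in shoot. OST1, a kinase of the abscisic acid response, differed least, with 5.4, 4.5, 6.37 and 5.45 FPKM in root and 8.08, 9.47, 8.69 and 7.31 in shoot, a difference of -0.55 ± 0.12 that was not called on every scale.

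Genes of cuticle and wax were higher in shoot, 24 of 26 tested among 30 members, and 22 on all 4 scales, with a median difference of -2.50. CER6, an enzyme that lengthens fatty acids for wax, was read at 3.16, 2.29, 1.24 and 1.52 FPKM in root and 225, 306, 270.0 and 288 in shoot, a difference of -6.52 ± 0.18. ATML1 and PDF2, homeobox genes of the shoot epidermis, stood at 1.67 ± 0.399 and 2.71 ± 0.318 FPKM in root and 33.8 ± 1.61 and 31.3 ± 2.6 in shoot. CER4, a reductase that makes fatty alcohols, went the other way, at 5.89, 12.8, 8.46 and 11.1 FPKM in root and 0, 0, 0 and 0.123 in shoot. GPAT6, an acyltransferase known from the cutin of flowers, was the other member higher in root, at 9.18 ± 1.81 against 3.1 ± 1.4 FPKM.

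Regulators of the root meristem were mostly higher in root. Of 26 members 25 were tested, 22 were higher in root and 2 in shoot, and 19 and 2 held on all 4 scales, with a median difference of 1.78. PLT1, which sets the stem cell niche, was read at 4.84, 3.66, 5.23 and 4.77 FPKM in root and at 0 in all shoot libraries, at least 127-fold higher in root. WOX5, expressed in the quiescent centre, stood at 2.01, 1.84, 2.94 and 3.06 FPKM in root and 0.328, 0.119, 0.19 and 0.115 in shoot, with no overlap. TMO7, a mobile factor of the embryonic root, was read at 24.5, 24.8, 36.4 and 35.4 FPKM in root and at 0 in 3 of 4 shoot libraries, a difference of 4.90 ± 0.15. SHR, which moves from the stele into the endodermis, was read in both organs at 14.9 ± 1.76 and 5.35 ± 0.861 FPKM. Its partner SCR passed in neither direction, as given above. The list entry BLJ was matched to the gene annotated as IDD4, so its identity is uncertain, and it is counted above under that match. The matched gene was higher in shoot, at 3.51, 3.94, 4.1 and 2.89 FPKM in root and 14.9, 16.3, 19.4 and 22.8 in shoot.

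Root hair genes made a nearly uniform block in root. Of 25 members 24 were tested and 23 were higher in root, on all 4 scales, with a median difference of 3.82. RHD6, the transcription factor that starts hair growth, was read at 7.54, 10.2, 9.33 and 9.37 FPKM in root and was at 0 in all shoot libraries, at least 150-fold higher in root. RHS13, a wall protein of hair cells, was read at 65.9, 93.6, 90 and 134 FPKM in root and at 0 in shoot. RHD2, the NADPH oxidase of the growing tip, stood at 15.3 ± 1.56 FPKM in root and 0.24 ± 0.29 in shoot. SHV3 was the member higher in shoot on the deposited scale, at 28.6, 36.9, 34.8 and 35.8 FPKM in root and 50.8, 38, 54 and 51.7 in shoot, and its difference of -0.50 ± 0.13 was 0.05 by read totals. Genes that pattern the epidermis were split, with 5 of 10 tested members higher in root and 3 in shoot, and 5 and 1 on all 4 scales, among 13 members. WER, which sets the hairless cells of the root, stood at 9.14 ± 0.858 FPKM in root and 0.594 ± 0.0565 in shoot. GL2, which acts after WER and also in leaf hairs, overlapped between the organs, with 5.57, 4.07, 3.93 and 4.66 FPKM in root and 4.7, 9.24, 4.3 and 7.91 in shoot.

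Genes of the Casparian strip and of suberin, the barriers of the endodermis, were higher in root for 19 of 21 tested members and in shoot for 2, on all 4 scales, among 25 members, with a median difference of 3.51. CASP1, which places the strip, was read at 135, 155, 183 and 231 FPKM in root and 1.53, 0.829, 1.55 and 2.54 in shoot, a difference of 6.09 ± 0.21. Its regulator MYB36 stood at 13.9 ± 1.3 FPKM in root and 0.323 ± 0.255 in shoot. CYP86A1, a hydroxylase of suberin fatty acids, was read at 71.5, 79.2, 94.5 and 89.4 FPKM in root and 0.988, 0, 0.911 and 0.13 in shoot. The pair higher in shoot was FAR1, at 8.24, 8.72, 12.4 and 7.74 FPKM in root and 21.4, 39.5, 36.6 and 41.1 in shoot, and KCS20, at 32.3 ± 3.64 and 61.9 ± 9.06. FAR4 and FAR5, the copies of FAR1 that also make fatty alcohols, stood at 8.47 ± 1.16 and 15.5 ± 3.1 FPKM in root and 0.14 ± 0.107 and 0.179 ± 0.129 in shoot.

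**Figure D4:**
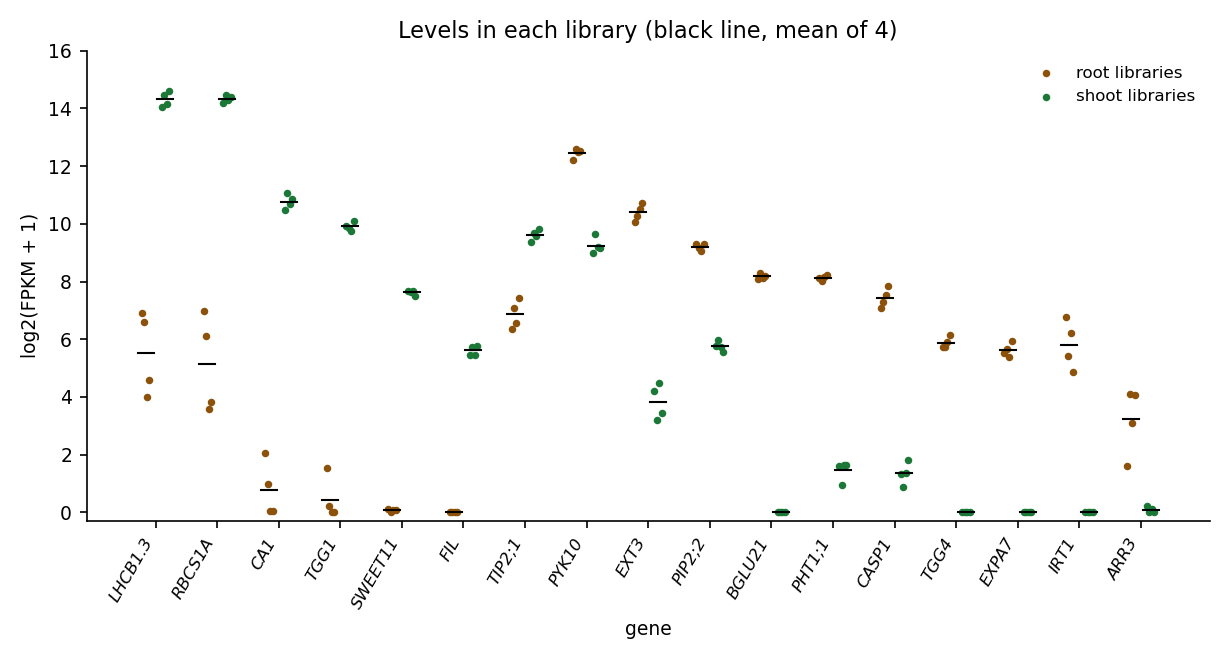
Levels of 17 genes in each of the 8 libraries as log2(FPKM + 1), with root and shoot libraries in different colours. Root and shoot points lie apart for the photosynthesis, root hair, endodermal and transport genes, root libraries 1 and 2 lie above 3 and 4 for LHCB1.3, RBCS1A, CA1 and TGG1, and ARR3 is low in 1 of the root libraries.

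Nitrogen uptake and assimilation genes were split between the organs. Of 32 members 27 were tested, 14 were higher in root and 12 in shoot, and 14 and 10 held on all 4 scales, with a median difference of 0.58. NRT1.5, which loads nitrate into the xylem, was read at 269, 273, 296 and 226 FPKM in root and 5.45, 1.52, 2.88 and 1.31 in shoot, a difference of 6.26 ± 0.27. NRT2.1, the high-affinity uptake carrier, was read at 16.7, 16.1, 33.4 and 24 FPKM in root and 0.382, 0.0592, 0.142 and 0.172 in shoot. NRT1.7, which moves nitrate out of old leaves through the phloem, ran the other way at 2.78, 1.98, 2.33 and 1.26 and 54.5, 40.1, 63.9 and 39.1 FPKM. The nitrate reductase gene NIA1 was read at 9.59, 8.33, 14.1 and 11.5 FPKM in root and 766, 897, 867 and 817 in shoot, and the other one, NIA2, stood at 46.6 ± 8.89 and 1028 ± 87.1. Plastid glutamine synthetase GLN2 was read at 62.3, 53.1, 56.4 and 63.7 FPKM in root and 1380.0, 1801, 1430.0 and 1499 in shoot, and cytosolic GLN1;2 at 1054, 973, 1304 and 1378 and 161, 173, 141 and 129. The other cytosolic forms on the list, GLN1;1, GLN1;3 and GLN1;4, were also higher in root, at 174 ± 21.5, 95.4 ± 3.26 and 2.33 ± 0.823 FPKM against 81.4 ± 24.5, 28 ± 1.91 and 0.576 ± 0.256 in shoot. The ammonium carriers AMT1;2 and AMT1;3 were higher in root, at 34.5 ± 4.69 and 26.5 ± 4.58 FPKM against 2.49 ± 0.662 and 0.399 ± 0.324 in shoot.

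Phosphate and sulfate genes numbered 23 tested of 30, with 11 higher in root and 7 in shoot, and 10 and 7 on all 4 scales, at a median difference of 0.23. PHT1;1, a phosphate uptake carrier, was read at 275, 261, 286 and 297 FPKM in root and 2.06, 0.932, 2.13 and 2.1 in shoot, a difference of 6.67 ± 0.15, although near-identical copies make its own count uncertain. PHO1, which loads phosphate into the xylem, was read at 109, 98.9, 106 and 71.5 FPKM in root and 4.23, 2.25, 4.14 and 3.43 in shoot. The chloroplast carrier PHT2;1 ran the other way at 10 ± 1.59 and 93.5 ± 15.6 FPKM. SULTR1;2, the main sulfate uptake carrier, stood at 79.9 ± 7.45 FPKM in root and 3.45 ± 0.563 in shoot. Sulfite reductase, SIR, was higher in shoot, at 90.8 ± 16.6 against 183 ± 25.9 FPKM.

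Iron and metal genes were split between the organs as well. Of 51 members 48 were tested, 26 were higher in root and 19 in shoot, and 24 and 15 held on all 4 scales, with a median difference of 0.49. IRT1, the iron uptake carrier, was read at 107, 42, 74.1 and 27.9 FPKM in root and at 0 in all shoot libraries, at least 1136-fold higher in root. FIT, the transcription factor that turns it on, was read at 46.6, 22.6, 28.8 and 32.5 FPKM in root and 0.5, 0, 0.0724 and 0.175 in shoot. F6'H1, which makes the iron-binding coumarins, was read at 100.0, 107, 111 and 122 FPKM in root and 0.548, 0, 0.136 and 0.246 in shoot. The ferric reductase gene FRO2 stood at 17.5 ± 12.3 FPKM in root and 0.27 ± 0.155 in shoot, and the chloroplast form FRO7 at 0 in root and 6.22 ± 1.76 in shoot. The storage protein FER1 was higher in shoot, at 192, 142, 219 and 172 FPKM in root and 662, 587, 780.0 and 717 in shoot. NAS1 and NAS2, which make the metal carrier nicotianamine, were higher in root, at 72.3 ± 32.8 and 35.2 ± 20.8 FPKM, while NAS3 was at 0 in root and 8.28 ± 2.07 FPKM in shoot.

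Of the carriers of potassium, sodium, boron and protons, 22 of 24 were tested, 18 were higher in root and 2 in shoot, and 16 and 1 held on all 4 scales, with a median difference of 1.73. NIP5;1, a boric acid channel, was read at 39.1, 38.4, 43.7 and 43.8 FPKM in root and 1.38, 1.61, 1.75 and 1.28 in shoot, and the borate exporter BOR2 stood at 33.2 ± 5.85 and 1.17 ± 0.486. SKOR, which releases potassium into the xylem, stood at 9.59 ± 1.88 FPKM in root and 0.211 ± 0.0275 in shoot. The proton pump AHA2 was read at 383, 336, 378 and 306 FPKM in root and 110.0, 107, 124 and 78.9 in shoot. Water channels, all 20 of them tested, were higher in root for 12 and in shoot for 3, and 12 and 2 held on all 4 scales, with a median difference of 0.97. PIP2;2 of the plasma membrane was read at 631, 579, 530.0 and 629 FPKM in root and 53.3, 62.3, 51.8 and 45.7 in shoot. PIP2;6 of the same family ran the other way at 8.22, 6.19, 4.29 and 6.45 and 151, 169, 185 and 205 FPKM. In the vacuolar membrane, TIP2;1 was higher in shoot, at 81.6, 136, 94.6 and 172 FPKM in root and 654, 823, 767 and 895 in shoot, whereas TIP2;3 stood at 91.4 ± 33.4 in root and at 0 in shoot. TIP1;2, among the most abundant of them in both organs, passed in neither direction at 1020.0 ± 235 and 1119 ± 190.0 FPKM.

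Sugar and starch genes were higher in shoot for 21 and in root for 11 of 36 tested among 40 members, and for 20 and 11 on all 4 scales, with a median difference of -1.05. SWEET11, which exports sucrose from leaf cells towards the phloem, was read at 0.0922, 0, 0.0508 and 0.0594 FPKM in root and 205, 198, 201 and 180.0 in shoot, a difference of -7.55 ± 0.08. SUC2, the loader of sucrose into the phloem, stood at 37.6 ± 6.37 FPKM in root and 96.7 ± 7.3 in shoot. APL1, a subunit of the enzyme that feeds starch synthesis, stood at 4.2 ± 1.13 FPKM in root and 129 ± 10.2 in shoot. Among the members higher in root, SUS4, a sucrose synthase, was read at 10.2, 15.1, 32.6 and 21.3 FPKM in root and 0.117, 0.127, 0.373 and 0.205 in shoot, and CINV1, a cytosolic invertase, stood at 266 ± 30.3 and 77.7 ± 10.7. The plastid carrier GPT1, which brings glucose phosphate into plastids, was read at 67.6, 72.1, 74.9 and 77.7 FPKM in root and 13.9, 14, 15.4 and 15.7 in shoot, and the triose phosphate exporter APE2 stood at 9.36 ± 3.23 and 629 ± 49.4.

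Glucosinolates are defence compounds of this plant family that myrosinases split. Of 44 members 42 were tested, 25 were higher in root and 11 in shoot, on all 4 scales, with a median difference of 1.09. Higher in root were CYP79B2, which starts the indole branch, at 158 ± 47.1 against 15.5 ± 6.89 FPKM and IGMT5, a methyltransferase, at 259 ± 61.4 against 5.53 ± 2.2. In the methionine branch, CYP79F1 was read at 0.606, 0.566, 0.0215 and 0 FPKM in root and 22, 18.4, 23.8 and 14.1 in shoot, while CYP79F2 was read at 11.9, 20.7, 35.1 and 17.9 and 10.5, 4.09, 9.55 and 3.83, so the lowest root library was just above the highest shoot library. The myrosinase TGG1 was read at 1.89, 0.178, 0 and 0 FPKM in root and 978, 915, 861 and 1103 in shoot, a difference of -9.47 ± 0.29. The myrosinases TGG4 and TGG5 were at 0 in shoot and stood at 58.2 ± 8.34 and 57.5 ± 8.15 FPKM in root, though their sequences are close and reads may be split. ESM1, a protein that steers breakdown towards isothiocyanates, was read at 0.23, 0.129, 0.108 and 0.169 FPKM in root and 47.5, 80.3, 87.3 and 61.6 in shoot. NSP1, which steers it towards nitriles, was read at 578, 840.0, 751 and 780.0 FPKM in root and 121, 235, 171 and 142 in shoot.

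Genes of triterpenes and other root metabolites were higher in root for all 16 tested of 19 members, on all 4 scales, with a median difference of 3.88. THAD, in the gene cluster that makes thalianol derivatives, was read at 83.6, 191, 145 and 180.0 FPKM in root and 0.301, 0, 0.418 and 0.19 in shoot, a difference of 6.89 ± 0.23. The thalianol synthase gene THAS1 stood at 94.5 ± 29 FPKM in root and 0.233 ± 0.158 in shoot. Of 20 flavonoid genes only 9 were tested, 4 higher in root and 5 in shoot. On all 4 scales 3 and 2 held, with a median difference of -0.42. CHS, the entry enzyme, was read at 160.0, 130.0, 146 and 155 FPKM in root and 46.3, 44.5, 35.5 and 25.8 in shoot. DFR, which leads to anthocyanins, was read at 0.0842, 0, 0 and 0 FPKM in root and 4.16, 3.12, 2.37 and 2.38 in shoot. Phenylpropanoid, lignin and secondary wall genes were higher in root for 28 of 32 tested among 36 members and in shoot for 2, with 26 and 1 on all 4 scales and a median difference of 1.40. PRX72, a peroxidase that joins lignin units, was read at 112, 129, 154 and 170.0 FPKM in root and 2.24, 1.39, 2.85 and 2.68 in shoot. PAL3 was the exception in the family of phenylalanine ammonia lyases, at 0.613, 0, 0.108 and 0 FPKM in root and 26.4, 16.8, 20.3 and 15.4 in shoot, while PAL1, PAL2 and PAL4 were higher in root.

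Cytokinin signalling genes, the subject of the series, were higher in root for 15 of 29 tested among 33 members and in shoot for 6, with 15 and 5 on all 4 scales and a median difference of 0.47. Of the receptors, AHK4 was read at 15.9, 18.7, 15.1 and 13.5 FPKM in root and 1.31, 1.64, 1.44 and 1.77 in shoot, AHK2 passed in neither direction at 8.36 ± 1.43 and 9.07 ± 0.884, and AHK3 stood at 14.9 ± 3.98 and 26 ± 3.25. Of the phosphotransfer proteins, AHP1 was read at 72.4, 94, 93 and 83.8 FPKM in root and 3.68, 2.17, 3.41 and 1.85 in shoot, a difference of 4.55 ± 0.17. AHP4, the gene disrupted in the mutant, was low in both organs and higher in shoot, at 1.71, 0.539, 0.901 and 0.879 FPKM in root and 10.6, 2.66, 4.37 and 3.48 in shoot, a difference of -1.52 ± 0.32 with an adjusted p of 0.0014 in limma. Shoot library 1 was the highest and root library 1 the highest of its organ. The type-A response regulators, which cytokinin raises, did not move together. ARR3 was read at 2.05, 16.3, 7.63 and 15.8 FPKM in root and 0.176, 0, 0.0762 and 0 in shoot, and ARR5 at 12, 31.7, 26.6 and 29.6 and 2.38, 5.77, 2.76 and 2.33, while ARR7 overlapped between the organs at 11.7, 29.5, 20.5 and 20.6 and 12.8, 42.8, 16.2 and 12.2. Root library 1 was the lowest root library for all 3. Among genes of cytokinin synthesis, breakdown and transport, 10 of 20 tested were higher in root and 9 in shoot, among 27 members. On all 4 scales 9 and 6 held, with a median difference of 0.21. IPT5, a synthesis enzyme, was read at 12.6, 7.78, 6.78 and 7.49 FPKM in root and 0.315, 0, 0.492 and 0.198 in shoot, and IPT3 stood at 5.67 ± 0.908 and 12 ± 2.96. LOG7, which frees the active base, was read at 37.6, 64.7, 46.1 and 46.5 FPKM in root and 3.69, 1.76, 2.97 and 3.12 in shoot. ABCG14, the carrier that sends cytokinin up from the root, stood at 36.3 ± 5.99 FPKM in root and 5.09 ± 2.42 in shoot.

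Auxin genes had a median difference of -0.01, with 8 of 32 tested higher in root and 13 in shoot, and 8 and 10 on all 4 scales, among 35 members. The efflux carrier PIN2 was read at 52.2, 44.7, 50.8 and 46.5 FPKM in root and 0.185, 0, 0.128 and 0.387 in shoot, whereas PIN3, PIN4 and PIN7 were higher in shoot, at 75.1 ± 10.5, 41.7 ± 7.41 and 56.1 ± 13.1 FPKM against 22.1 ± 3.05, 7.2 ± 0.918 and 14.9 ± 2.3 in root. LAX3, an influx carrier, was read at 28.9, 32.6, 36.2 and 36.4 FPKM in root and 3.16, 3.97, 5.1 and 5.44 in shoot, and AUX1 of the same family passed in neither direction, at 48.4 ± 3.48 and 46.5 ± 5.78. The receptor gene TIR1 passed in neither direction, at 29.8 ± 3.08 and 32.3 ± 4.78 FPKM. Gibberellin, brassinosteroid and strigolactone genes were higher in root for 13 and in shoot for 11 of 31 tested among 35 members. On all 4 scales 11 and 8 held, with a median difference of 0.21. Over all genes tested, 37.7% were higher in root and 32.8% in shoot. CPD, a brassinosteroid synthesis enzyme, was read at 19.1, 11.9, 13.3 and 14.1 FPKM in root and 158, 215, 152 and 242 in shoot. The gibberellin receptor GID1B was higher in root at 22.1 ± 3.22 against 7.9 ± 1.54 FPKM, while GID1A and GID1C passed in neither direction.

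Ethylene, jasmonate, salicylate and abscisic acid genes were higher in shoot for 20 and in root for 13 of 39 tested among 45 members, with 16 and 10 on all 4 scales and a median difference of -0.46. LOX2, a plastid lipoxygenase at the start of jasmonate synthesis, was read at 0, 0, 0.0217 and 0 FPKM in root and 87.7, 90.1, 96.8 and 91.6 in shoot, a difference of -6.52 ± 0.09. Another lipoxygenase gene, LOX1, was read at 59.2, 95, 96.1 and 56.3 FPKM in root and 7.44, 2.99, 4.23 and 4.16 in shoot. AOC1, which acts later in the same pathway, was read at 1.4, 1.41, 0.414 and 0.277 FPKM in root and 126, 144, 133 and 101 in shoot, and its copy AOC4 was higher in root, at 47 ± 5.91 against 13.6 ± 3.27. ACO4, which makes ethylene, stood at 20 ± 2.93 FPKM in root and 820.0 ± 185 in shoot, and ACO1 at 19.5 ± 3.71 and 1.63 ± 0.659. ABA1, a plastid enzyme that leads to abscisic acid, stood at 14.4 ± 4.52 FPKM in root and 190.0 ± 16.5 in shoot.

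Clock genes had 9 of 18 tested members higher in shoot and 2 in root, among 20 members. On all 4 scales 5 and 2 held, with a median difference of -0.65. The labels give no hour of harvest. ELF4, of the evening complex, was read at 14.6, 37.9, 34.6 and 57.5 FPKM in root and 1.05, 1.14, 1.06 and 2.38 in shoot. CCA1, a morning gene, was read at 4.44, 3.06, 1.71 and 1.12 FPKM in root and 28.1, 17.7, 14.2 and 8.29 in shoot, and LNK2 at 18.7, 11.4, 7.41 and 5.83 and 206, 154, 148 and 135. For CCA1 and LNK2, library 1 was the highest and library 4 the lowest in each organ. Cell division genes were higher in root for 19 of 31 and in shoot for 2, with 17 and 1 on all 4 scales and a median difference of 0.57. The kinase gene CDKB1;1 was read at 11.7, 12.8, 11.8 and 13.9 FPKM in root and 2.92, 2.54, 3.11 and 3.68 in shoot, and SIM, an inhibitor of such kinases, at 24.4, 27.4, 28.3 and 46.6 and 4.65, 3.16, 4.16 and 4.42. CDKA;1 passed in neither direction, at 31.8 ± 2.1 and 30 ± 2.67 FPKM. Among 15 reference genes tested, 9 passed in neither direction, 3 were higher in root and 3 in shoot. The actin genes ACT2 and ACT8 and the glycolysis gene GAPC1 were higher in root on all 4 scales, with ACT8 at 396, 362, 365 and 443 FPKM in root and 139, 139, 133 and 130.0 in shoot, while YLS8 stood at 71.4 ± 8.08 and 71.8 ± 6.59. Those higher in shoot were PP2AA3, UBC9 and SKIP, at 32.6 ± 1.79, 90.7 ± 14.4 and 48.8 ± 7.26 FPKM in root and 38.7 ± 2.48, 127 ± 4.51 and 82.4 ± 3.87 in shoot, and none of these held on all 4 scales, with differences by read totals of 0.30, 0.06 and -0.21.

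Ratios between paired genes within a library do not depend on the scale of that library beyond the pseudocount. Of 30 pairs, most of them gene copies or enzymes of related function, 28 differed between the organs, each with an exact two-sided permutation p of 0.0286 and an adjusted p of 0.0306. The pairs were chosen with earlier results of these data known, and other gene pairs were not tested. The count of 28 is thus no measure of how many gene pairs differ. Of all single genes tested, 37.7% were higher in root and 32.8% in shoot. The log2 ratio of the leaf ferredoxin gene FD2 to the root form FD3 was -2.21 ± 0.25 in root and 5.76 ± 0.48 in shoot, and every shoot library was above 5 and every root library below -1. For the glutamate synthase genes GLU1 and GLU2 it was -4.72 ± 0.61 in root and 5.42 ± 0.15 in shoot. For the carboxylase genes PPC2 and PPC1, whose products fix bicarbonate, it was -3.53 ± 0.31 in root and 1.90 ± 0.15 in shoot. The ferredoxin reductases LFNR2 and RFNR2 gave -4.91 ± 0.80 in root and 4.47 ± 0.52 in shoot, and the lipoxygenases LOX2 and LOX1 gave -6.23 ± 0.41 in root and 4.07 ± 0.48 in shoot. Auxin influx carriers LAX1 and LAX3 changed order as well, at -2.50 ± 0.27 in root and 1.73 ± 0.24 in shoot. For the nitrate reductases the ratio of NIA2 to NIA1 was 2.01 ± 0.48 in root and 0.29 ± 0.14 in shoot, so NIA2 led in both organs and by more in root. The iron superoxide dismutase FSD1 against the copper form CSD1 gave 0.19 ± 0.44 in root and 5.02 ± 0.51 in shoot. The pairs that did not pass were PHYB to PHYE, at 1.55 ± 0.23 in root and 1.16 ± 0.13 in shoot with an adjusted p of 0.0591, and CAT2 to CAT3, at 0.01 ± 0.50 in root and 0.11 ± 0.46 in shoot with an adjusted p of 0.9143, both from the exact test. The ratio of SEX1 to GPT2, genes of starch breakdown and of plastid sugar import, passed at 3.54 ± 0.26 in root and 4.83 ± 0.72 in shoot, but GPT2 had only 3 reads in root and 37 in shoot. With a pseudocount of 0.1 that ratio was 6.42 ± 0.40 in root and 6.22 ± 1.36 in shoot, with an exact adjusted p of 0.8867, so its call and direction were set by the pseudocount.

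**Figure D5:**
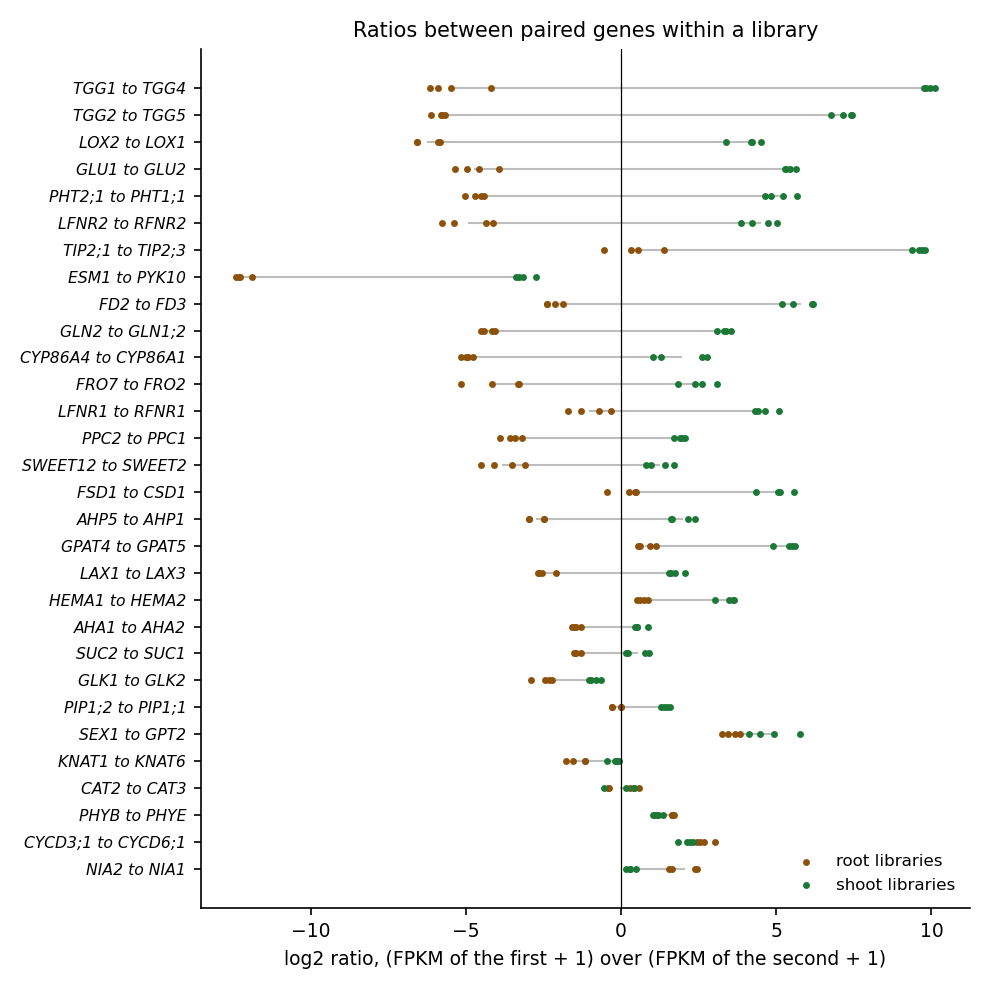
Log2 ratio of 2 genes, (FPKM + 1) over (FPKM + 1), in each of the 8 libraries for 30 pairs, with root and shoot libraries in different colours. The FD2 to FD3 ratio lies below -1 in all root libraries and above 5 in all shoot libraries, and the points of PHYB to PHYE and of CAT2 to CAT3 mingle.

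Among the most abundant genes of the root, PYK10 was followed by PBP1, a lectin that binds its product, at 2133 ± 399 FPKM in root and 758 ± 243 in shoot. GRP9, a glycine-rich protein, was read at 1487, 1584, 1593 and 1054 FPKM in root and 129, 0.16, 34.6 and 11.6 in shoot, where the libraries ranged widely. EXT3, an extensin of the cell wall, was read at 1081, 1233, 1478 and 1708 FPKM in root and 17.3, 8.16, 21.5 and 9.85 in shoot. The glutathione transferase GSTF9, the TRAF-like gene AT5G26280, the ADP/ATP carrier AAC1 and the dehydrin AT1G54410 were all higher in root and between 1077 and 1253 FPKM there, whereas AT3G15450, at 1830.0 ± 401 FPKM in root and 1420.0 ± 331 in shoot, passed in neither direction. The AT3G15450 difference depended on the scale, at 0.37 ± 0.21 as deposited, 0.93 by read totals, 2.26 by quantiles and 0.27 by reference genes. Of genes with a symbol and no overlap of libraries, the largest differences were those of the beta-glucosidase BGLU21 at 8.18 ± 0.08, the MLP-like gene MLP329 at 8.01 ± 0.39 and the beta-glucosidase BGLU22 at 7.70 ± 0.33, whose sequence is similar to that of BGLU21. MLP329 was read at 559, 708, 549 and 785 FPKM in root and 4.04, 0, 1.91 and 1.67 in shoot, and its neighbour MLP328 stood at 460.0 ± 79.2 and 2.85 ± 2.36. DOX1, an alpha-dioxygenase, stood at 501 ± 31.1 FPKM in root and 3.26 ± 2.91 in shoot, and the protease inhibitor KTI1 at 415 ± 76.1 and 3.79 ± 3.18. At the shoot end, the 15 lowest differences among genes with a symbol and no overlap ran from -11.67 to -8.48, and 14 of these 15 genes encode antenna or photosystem proteins, Rubisco subunits, carbonic anhydrases or a Calvin cycle aldolase. The remaining one was TGG1.

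Of the 33199 features, 350 root genes, 335 of them protein coding, were at 1 FPKM or more in all 4 root libraries and at 0 reads in shoot. The reverse held for 96 shoot genes, 78 of them protein coding. These counts are not on equal terms. Size factors were 1.1071 to 1.457 in root libraries and 0.746 to 0.9332 in shoot libraries, so a given FPKM stands for more reads in root. Shoot genes with 1 read in root, such as LOX2 and TGG2, were left out. Folds for the 350 and 96 genes are bounds against 3 reads over the 4 libraries at 0. The most abundant in root was the peroxidase gene AT3G01190, at 290.0 ± 55.8 FPKM, at least 4555-fold higher in root, and BGLU21 stood level with it at 290.0 ± 20. The lectin gene AT1G52070, the lipid transfer family gene AT5G46890 and the extensin-like gene AT1G23720 followed at 163 ± 31, 148 ± 51.6 and 126 ± 21 FPKM. In shoot it was AT1G23130, annotated in a lipid transport superfamily, at 617 ± 70.2 FPKM, at least 9230-fold higher in shoot, with a difference of -9.26 ± 0.09. The pollen Ole e 1 family genes AT3G16670 and AT3G16660, which lie close together, stood at 139 ± 31.4 and 80.9 ± 17.5 FPKM, and the aldolase gene FBA5 at 104 ± 36.5 with an annotated gene on the same stretch.

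Genes of the organelle genomes were thinly read in these libraries of polyadenylated RNA. Of 133 chloroplast genes, 79 were tested, 75 were higher in shoot and 0 in root, and 74 by read totals, with a median difference of -2.19. They took 0.00251 ± 0.000155% of reads in root and 0.0339 ± 0.0067% in shoot. ATCG01020 was read at 2.41, 4.24, 2.66 and 3.11 FPKM in root and 97, 149, 71 and 115 in shoot, a difference of -4.70 ± 0.21, from 26 and 588 reads. Of 152 mitochondrial genes 13 were tested and 4 were higher in root, 6 by read totals, with 0 higher in shoot. On the deposited scale, 37.7% of all genes tested were higher in root. ATMG00020 stood at 66.7 ± 15.4 FPKM in root and 13.6 ± 3.53 in shoot. It had 9137 reads in root and ATMG01390 had 8825, while the next of the 13, ATMG00030, had 871. The share of reads on mitochondrial genes was 0.0446 ± 0.0101% in root and 0.00752 ± 0.00117% in shoot.

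Genes that lay mostly on another annotated gene were thinly read. Of the nuclear protein-coding genes, 872 lay for 80% or more of their length on another annotated gene, their median was 0 reads over the 8 libraries, 616 of them (70.6%) had 0 reads and 97 (11.1%) were tested. Of 19672 genes with no overlap, the median was 649 reads, 3201 (16.3%) had 0 reads and 67.0% were tested. Of 6900 genes overlapped for under 80%, the median was 1230 reads, 359 (5.2%) had 0 reads and 81.1% were tested. Low listed values of genes overlapped for 80% or more cannot be told from low transcript levels. Members of the lists in this position with few or no reads included AMT1;1, an ammonium carrier with 81.1% of its length overlapped and 5 reads. ESB1 of the Casparian strip had 84.6% and 41 reads, and F3H of flavonoid synthesis had 94.5% and 0 reads. Other members so overlapped were well read and were tested. Among them were APL1 with 80.8% and 8190 reads, CYP81F4 of the glucosinolate list with 99.6% and 3027, and LAC17 of the lignin list with 97.4% and 1901. Genes named above that share part of their span with another annotated gene, and whose counts are uncertain for that reason, were LHCB1.3, RCA, CA1, PYK10, CASP1, EXPA7, SKOR, PSBR, PSAH2, GLDP1, FC1, PHYE, SHV3, GL2, FAR1, FAR4, NRT1.5, GLU1, F6'H1, FER1, TIP2;1, APL1, APE2, IGMT5, CHS, ABCG14, AHP4, CPD, LOX1, LNK2, CDKB1;1, SIM, SKIP, EXT3, AT3G15450, FBA5, CAT2 and CSD1. In all, the 31 lists held 825 different genes, of which 734 were tested, 326 were higher in root, 314 were higher in shoot and 94 passed in neither direction. The other 91 were below the filter on low values.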

How the data were processed

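The authors deposited 1 table of FPKM values per gene, with no counts. Per the submitters' processing notes, the genome build named was TAIR10, while the aligner, counter, strand setting and annotation were not given in the sources used here. Per the labels' protocols, polyadenylated RNA was caught on poly-T beads, primed with random hexamers and sequenced as 150 base pairs of paired reads. Samples were grouped by title. In each library the FPKM values were whole multiples of a per-gene step, so relative reads and size factors were rebuilt, with 100% of the 33199 features whole within 0.01 reads. Tests used limma 3.58.1 in R 4.3.3 on log2(FPKM + 1) with a mean-variance trend and Benjamini-Hochberg adjustment, over genes with 1 FPKM or more in at least 3 of the 8 libraries, and the script was tested on simulated data. Per-library shares and gene ratios used exact two-sided permutation tests, adjusted over 35 shares and over 30 pairs. Other scalings, pseudocounts, filters, a replicate block, a fit of all 8 groups, voom on rebuilt reads and leaving out each library were tried. Replicate pairs of an organ differed by 6.94 to 21.02 chi-square units per degree of freedom, above counting noise, which does not tell separate plants from repeat libraries of 1 pool. Symbols were matched to 32548 annotated features of TAIR10.1, whose genome and annotation also gave the promoter windows. Genes named are the 15 highest and 15 lowest differences among called genes with a symbol, 10 FPKM or more in the higher organ and no overlap of libraries, the 10 most abundant genes and 8 most abundant genes of 1 organ alone, and members of the lists and pairs. The libraries, lists, pairs and named genes were chosen with earlier results of these data known.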

Additional observations from a re-analysis of the deposited data

Results flagged for a closer look

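Among genes at least 2-fold different in mock-treated Col, 4 differed between the organs in one direction there and in the other direction in Col given BA, and in both cases no root library overlapped a shoot library. They were chosen after their values were seen, and the difference between the treatments was not tested. SHY2, an auxin response repressor, had a root minus shoot log2 difference of -1.12 ± 0.22 in mock and 0.57 ± 0.12 with BA. Its root libraries ranged from 7.74 to 15.1 FPKM in mock and from 36.8 to 45.7 with BA, and its shoot libraries from 15.3 to 28.0 and from 22.8 to 31.9. GH3.3 and DFL1, enzymes that join auxin to amino acids, had differences of -2.14 ± 0.22 and -1.18 ± 0.17 in mock and 1.48 ± 0.26 and 1.04 ± 0.17 with BA. GH3.3 ranged from 2.8 to 6.15 FPKM in mock roots and from 22.8 to 57.9 in BA roots. The pectin lyase-like gene AT5G19730 went from 1.17 ± 0.20 in mock to -0.88 ± 0.18 with BA, all on the log2(FPKM + 1) scale.

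Of 484 groups of 4 libraries examined, 29 held 1 library far from the other 3, where far means a gap to the nearest library above 0.829 of the whole range, Dixon's 95% critical value for 4 values, which chance passes in about 1 in 20 groups. In root library 1 these were GLK1 at 0.407 FPKM, TGG1 at 1.89, DFR at 0.0842, LAX1 at 5.94, CINV1 at 221 and IGMT5 at 168, and the share of clock genes at 0.218% of reads. The shoot genes GLK1, TGG1 and DFR were high in that library, which also held the most reads of shoot markers. GLK1 and TGG1 are themselves shoot markers, so their levels and that share are not separate, and DFR was barely read there. In root library 2 it was MYB36 at 12 FPKM, and in root library 3 LOX2 at 0.0217. In root library 4 they were TIP1;2 at 1372 FPKM, ACT2 at 397, AT1G52070 at 210.0 and the share of ethylene, jasmonate, salicylate and abscisic acid genes at 0.198%. In shoot library 1 they were TMO7 at 0.141 FPKM, ATMG00020 at 8.38 and the share of cytokinin synthesis genes at 0.0342%. In shoot library 2 they were RCA at 8927 FPKM, PHT1;1 at 0.932, ACT2 at 278, the cytokinin response genes ARR5 at 5.77 and ARR7 at 42.8, and the shares of carbon fixation genes at 9.27% and of endodermal genes at 0.0173%. In shoot library 4 they were GLK1 at 31.2 FPKM, CER4 at 0.123, GPAT6 at 5.18, NIA2 at 898, ELF4 at 2.38 and the share of nitrogen genes at 1.1%.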

How the results depend on the processing

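Counts of genes depended on the scale between libraries. By read totals, 11801 genes were higher in root and 3941 in shoot, with 5915 and 2576 at 2-fold or more. By quantiles the counts were 7691 and 6450, and by reference genes 6670 and 6941. With a pseudocount of 5, 2049 genes were at least 2-fold higher in root and 2342 in shoot. With the replicate block, 7387 and 6443 genes were called. Same-numbered libraries of the organs correlated at 0.015 to 0.083 in their deviations from the organ means, and differently numbered ones at -0.082 to 0.045. Whether the numbers mark pairs was not tested, and the main fit did not pair them. The sign-flip test of gene pairs in a replicate block cannot go below 0.125. Voom on rebuilt reads gave 7336 and 6435. Without each library in turn, 6935 to 7330 genes were higher in root and 6009 to 6289 in shoot.

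Of 216 named genes tested, 193 kept their direction and their side of the threshold under all 18 alternatives. By read totals the sign changed for GLYK (0.32), PHYB (0.12), COP1 (0.46), SHV3 (0.05), TIP1;2 (0.41), TIR1 (0.43), AHK2 (0.38), PP2AA3 (0.30), UBC9 (0.06) and YLS8 (0.54). By quantiles it changed for TIP1;2 (1.45) and YLS8 (0.24). These are sign changes of genes called on at least 1 of the scales compared. Among named genes called on neither scale, the sign changed for 1 by read totals, 3 by quantiles and 3 by reference genes. With the sign unchanged, 6 named genes gained a call by read totals and 5 lost one. By quantiles 5 gained a call and 3 lost one, and by reference genes 1 gained a call and 0 lost one. PHYB was not called in the replicate block, and PP2AA3 was not called without root library 3 (-0.21) or shoot library 2 (-0.20). With a pseudocount of 0.1, 27 gene pairs passed in place of 28. Genes at a few reads in one organ, such as TMO7 in shoot, have differences set largely by the pseudocount.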

Other observations

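Genes of the water-conducting tissue and of defence, not described above, also differed. The cellulose synthases CESA4, CESA7 and CESA8 of secondary walls were higher in root, at 12.7 ± 0.478, 10.8 ± 0.792 and 8.47 ± 0.348 FPKM against 4.33 ± 0.433, 2.28 ± 0.536 and 2.32 ± 0.3 in shoot, and each shares part of its span with another annotated gene. IRX9, which builds xylan, stood at 7.79 ± 1.64 FPKM in root and 1.09 ± 0.367 in shoot, and VND7, a master regulator of vessels, at 1.31 ± 0.254 and 0.208 ± 0.189. PR5, a defence protein of the salicylate response, was at 0 in all root libraries and at 6.83, 18.9, 11.2 and 12.6 FPKM in shoot, at least 240-fold higher in shoot. EDS5, a salicylate transporter, was higher in root, at 15 ± 3.6 against 1.96 ± 0.406 FPKM, and ICS1, which makes salicylate, was higher in shoot, at 2.5 ± 0.0955 against 10.9 ± 3.15. VSP1, a jasmonate marker protein, was read at 31.2, 43.9, 42.4 and 37.1 FPKM in root and 4.21, 2.05, 2.61 and 2.98 in shoot. The metallothioneins MT2A and MT3 were higher in shoot, at 34.5 ± 10.8 and 55.5 ± 7.1 FPKM in root and 258 ± 29.4 and 411 ± 59.2 in shoot.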
